A study of Homo sapiens with 6 samples.

Results

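The genes of glycolysis and of the pentose phosphate pathway were examined in Kasumi-1 cells, a line established from an acute myeloid leukemia with the fusion of RUNX1 (AML1) and RUNX1T1 (ETO). The set was given as a list of gene symbols by pathway, with no threshold on the measured values, although earlier results of these data were known when it was drawn up. It holds 34 of the 32364 genes in the deposited table, matched from Ensembl identifiers to symbols with GENCODE release 29. All 34 were found, and 32 of them were among the 18726 genes tested, for which a mean FPKM of 0.1 or more was required. HK3 and HKDC1 were under that level. The members are the enzymes from hexokinase to lactate dehydrogenase with their isoenzymes, the PFKFB enzymes, subunits and kinases of pyruvate dehydrogenase, the phosphoglucomutases, and 3 enzymes of the pentose phosphate pathway.

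Glycolysis splits glucose into pyruvate and yields ATP and NADH. The pentose phosphate pathway branches off at glucose 6-phosphate and provides NADPH and ribose phosphate. Leukemic blasts, like most proliferating cells, convert much of their pyruvate to lactate, a step that renews the NAD+ glycolysis needs, and most steps have isoenzymes whose mixture differs between tissues. Pyruvate that is not turned into lactate enters mitochondria and is oxidised by pyruvate dehydrogenase, an enzyme that the PDK kinases switch off.

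The libraries were 3 of control cells, which per the methods of the study received the DMSO solvent alone, and 3 of cells treated with I13, an inhibitor of histone deacetylases, at 0.5 µM for 48 h. All came from 1 cell line with no genetic change between the groups, so they show the response of that line alone, and the sequencing of these cells was meant to show which genes I13 alters. FPKM is the number of fragments on a gene per kilobase of exon, scaled to the mapped fragments of the library. For most genes the length that fitted the values was that of all annotated exons joined, which can exceed that of the mRNA expressed. Levels and shares of different genes therefore depend on the annotation as well. The labels do not say whether the libraries came from separate cultures, and the p-values measure the spread between these libraries, which may be technical.

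Depth was computed from the FPKM values. Control libraries held 16566742 to 17221345 fragments and I13 libraries 15281052 to 16682550. The 10 Kasumi-1 markers examined, among them MPO, CD33, CD34 and KIT, were all at a mean FPKM of at least 1. Summed FPKM was at most 0.438 in any library for the T cell markers (CD3D, CD3E, CD2) and at most 0.262 for the platelet markers (PPBP, ITGA2B). ALAS2, an erythroid marker, was at most at 0.184 FPKM. COL1A1 and COL1A2 of fibroblasts were at 0 in all libraries. CD79A of B cells was at 1.24 to 1.61 FPKM in control and 1.38 to 2.55 FPKM in I13 libraries. EPCAM was at 20.8 to 26.5 FPKM, while KRT8, a keratin of the same epithelial list, had no more than 0.019. Control replicate 3 and I13 replicate 2 stood apart from the other 4 libraries on the first principal component, which carried 43.3% of the variance of 4133 well expressed genes. The labels name no batch that joins these libraries, and their values are given separately where a result depends on them. The second component, with 20.5% of the variance, separated all control libraries from all I13 libraries.

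The promoters of 4 members are shown, picked by the values described further on. In the main test (limma) no member differed after adjustment over all genes tested. The level of LDHB itself was close to control, with a log2 fold change of 0.03. LDHA and LDHB are the subunits of lactate dehydrogenase, whose proportion differed between the groups without overlap. GPI is the enzyme with the smallest p, and PFKFB4 is the regulator whose share was lower in every I13 library. The lines give the 250 bases before the start of transcription in RefSeq (GRCh38.p14), 5′ to 3′ on the strand of the gene. Capitals mark ACGTG on either strand (read as CACGT on the other), a form of the core of the hypoxia response element. The E-box CACGTG holds these letters on both strands. The other form of the hypoxia core, GCGTG, was neither marked nor counted.
LDHA, chr11:18394313-18394562, plus strand: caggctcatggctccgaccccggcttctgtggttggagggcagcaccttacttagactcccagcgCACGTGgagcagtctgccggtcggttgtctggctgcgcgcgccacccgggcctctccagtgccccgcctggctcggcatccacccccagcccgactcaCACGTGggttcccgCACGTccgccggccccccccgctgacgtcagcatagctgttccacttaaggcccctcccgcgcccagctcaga
LDHB, chr12:21657843-21658092, minus strand: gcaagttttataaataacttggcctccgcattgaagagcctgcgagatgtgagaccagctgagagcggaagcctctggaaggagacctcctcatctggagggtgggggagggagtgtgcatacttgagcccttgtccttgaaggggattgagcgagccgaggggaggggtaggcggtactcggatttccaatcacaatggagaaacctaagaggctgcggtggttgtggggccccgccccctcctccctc
GPI, chr19:34364742-34364991, plus strand: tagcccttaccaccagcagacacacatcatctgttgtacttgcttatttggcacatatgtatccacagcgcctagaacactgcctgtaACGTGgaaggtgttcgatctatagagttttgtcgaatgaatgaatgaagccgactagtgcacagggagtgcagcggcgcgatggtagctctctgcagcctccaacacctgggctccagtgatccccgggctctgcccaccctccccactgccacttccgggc
PFKFB4, chr3:48556804-48557053, minus strand: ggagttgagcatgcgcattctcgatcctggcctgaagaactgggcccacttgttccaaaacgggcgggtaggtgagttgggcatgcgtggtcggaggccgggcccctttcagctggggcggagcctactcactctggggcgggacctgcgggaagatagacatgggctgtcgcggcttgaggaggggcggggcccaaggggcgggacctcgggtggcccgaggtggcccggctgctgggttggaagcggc

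The LDHA window, taken at the first of its start sites in the table, held 5 matches, which lie in 3 places because an E-box counts on each strand. A further LDHA window, before a later start site on chromosome 11 from 18396101 to 18396350, held none. The GPI window held 1 match, 162 bases before the start. The windows of LDHB and PFKFB4 held no ACGTG, although that of PFKFB4 holds the uncounted form GCGTG. Over all members, 23 of 60 windows (38.3%) held the letters, and 18.5% of the 35116 windows of all genes did. Counted by gene, 20 of 33 members with a window had a match in at least 1 of them, and 21.7% of 27305 genes did. Members have more start sites per gene than other genes, so the counts by gene are not on equal terms. Some windows of HK1 and some of PFKM overlap, and the windows of all genes were not matched to the members by level or base composition. PFKFB2 had no entry.

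The mRNA of these enzymes was abundant, and the differences between I13-treated and control cells were small. Together the 34 genes took 1.17% ± 0.0463 (SD, n = 3) of the summed FPKM of a library in control cells and 1.10% ± 0.0346 (SD, n = 3) in I13-treated cells, with p = 0.2 in a two-sided exact permutation test. With 3 against 3 libraries such an exact test cannot go below p = 0.1.

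GAPDH, the dehydrogenase that makes NADH in the trunk of the pathway, was the most abundant member and ranked 38 of all genes by mean FPKM. The others with a mean FPKM of at least 100 were ENO1, LDHB, TPI1, PGD, PGAM1, PGK1 and PKM, so that 8 members were at this level. In all, 22 members had a mean FPKM of at least 10. The members at the low end were minor isoenzymes of their steps. HK3 had at most 5 fragments and HKDC1 at most 1 in any library, and PFKM, ALDOC, ENO2 and PFKFB2 were each under 1 FPKM in every library.

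**Figure D1:**
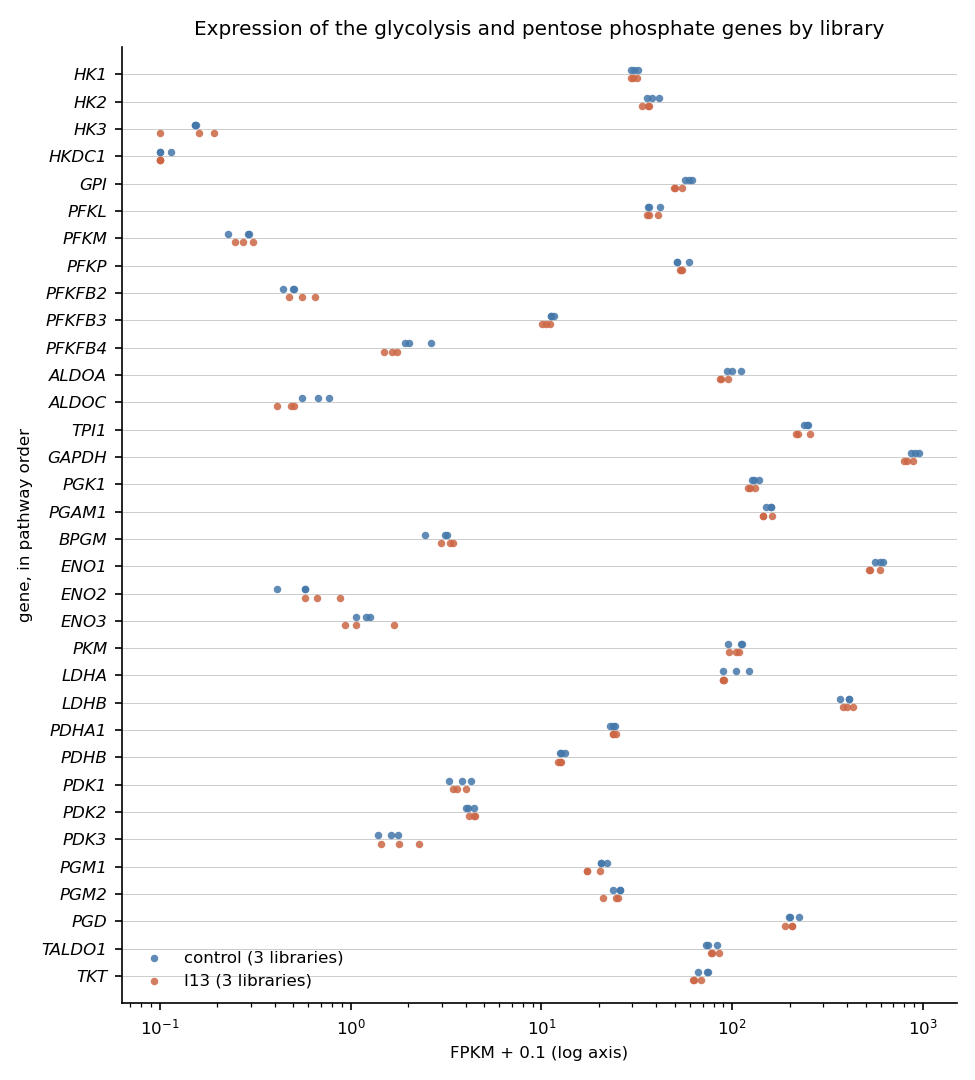
FPKM + 0.1 on a log10 axis of the members in each of the 3 control and 3 I13 libraries, one point per library, in the order of the pathway. Levels run from GAPDH at 797 to 954 FPKM down to HK3 and HKDC1 near 0, and the points of both groups lie close together for nearly all genes.

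Of the 32 members tested, 4 were lower in I13-treated cells at an unadjusted p under 0.05 (12.5%), namely GPI, PFKFB4, ALDOA and PGM1, and 0 were higher. Among all 18726 genes tested, 2.59% were lower and 2.55% higher at this threshold, 5.14% in all. In limma, 0 members passed the threshold after Benjamini-Hochberg adjustment, with a smallest adjusted p of 0.859, and 0 of all genes did. With voom, limma's test on the fragments recovered from FPKM, 7 members were past the unadjusted threshold, all lower, and 0 past the adjusted one. With a voom fit that held a term for the pair of libraries that stood apart, 10 were past the unadjusted threshold, again all lower. Of these 1, GPI, was past the adjusted threshold, at an adjusted p of 0.0167. The pair was picked from these same values and the fit was added after they were seen, so its p-values may be too small. Of the 13814 genes in the first of these fits 5.36% were past the unadjusted threshold (2.8% lower) and 0.0362% past the adjusted one, and in the second 10.3% (5.26% lower) and 0.63%. No member reached an absolute log2 fold change of 0.58 together with an unadjusted p under 0.05, where 2.38% of all genes did. The count of 4 was 1 without control replicate 1 and 1 without I13 replicate 3, with GPI as the member left in both. It was 2 without I13 replicate 1 and 7 without I13 replicate 2.

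The differences were small, and most had the same sign. Log2 fold changes, computed on log2(FPKM + 0.1) and therefore understated for genes of low level, ran from -0.50 for ALDOC to 0.43 for ENO2. Their median was -0.05 over the 32 members and 0.01 over all genes tested. The fold change was below 0 in 22 members (68.8%) and in 48.2% of all genes. Among the 22 members with a mean FPKM of at least 10, it was below 0 in 19 (86.4%), against 45.9% of 4133 genes at that level, and the median was -0.08 against 0.01. Several of these members moved together from library to library, so their signs are not separate observations. The well expressed exceptions were LDHB, PDHA1 and TALDO1, of which LDHB was below 0 with quantile normalization and PDHA1 in the 4 libraries outside the pair that stood apart. For 25 members the 95% interval of the difference stayed within 0.58 of 0 on either side. It reached further for PFKM, PFKFB2, PFKFB4, ALDOC, ENO2, ENO3 and PDK3, all of low level, whose values at this depth leave room for a difference of that size.

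**Figure D2:**
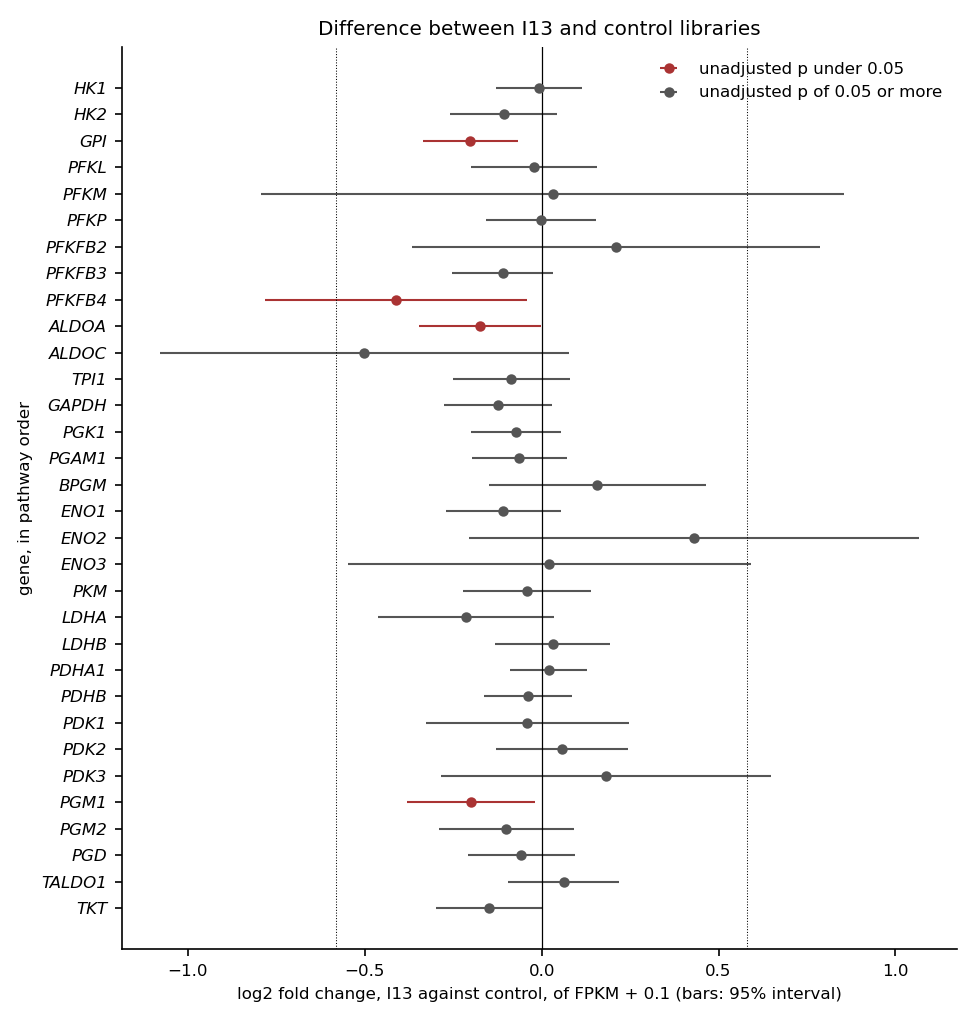
Log2 fold change of I13 against control for the 32 members tested, on log2(FPKM + 0.1), with the 95% interval of limma as bars, in the order of the pathway. The values run from -0.50 to 0.43, and 4 intervals, those of GPI, PFKFB4, ALDOA and PGM1, lie wholly below 0.

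Hexokinase, which traps glucose in the cell as glucose 6-phosphate, was made up of HK1 and HK2 in nearly equal parts. HK2, the form that many tumors and growth-stimulated cells express, was at 41.0, 35.8 and 38.0 FPKM in control replicates 1, 2 and 3 and at 36.5, 33.8 and 36.3 FPKM in I13 replicates 1, 2 and 3. The groups overlapped, with a log2 fold change of -0.11 (SE 0.06) and an unadjusted p of 0.136 in limma. HK1, the form found in most tissues, lay between 29.3 and 31.9 FPKM in all 6 libraries. HK2 took between 52.7% and 58.3% of the hexokinase FPKM.

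GPI, which turns glucose 6-phosphate into fructose 6-phosphate, was the member with the smallest p. It was at 61.6, 56.4 and 59.5 FPKM in the control libraries and at 49.5, 54.6 and 50.2 FPKM in the I13 libraries. Every I13 library was lower than every control library, and I13 replicate 2, of the pair that stood apart, was the I13 library closest to control. The log2 fold change was -0.20 (SE 0.06, 95% interval -0.34 to -0.07), with an unadjusted p of 0.00949 and an adjusted p of 0.859 in limma. The 4 libraries outside the pair alone gave -0.24, with an unadjusted p of 0.00923 in limma, and the pair alone gave -0.12, a difference of 1 library from 1 with no test. GPI kept its side of the unadjusted threshold in all 18 alternatives run, and between 6995 and 9666 fragments stood behind each value. The exon length used for that count was found by search and is the shortest that gave whole fragments, so the count could be a multiple of it, and the voom results of GPI rest on it. The gene lies on chromosome 19 from 34359480 to 34402413 on the plus strand. GENCODE holds a second coding gene on the same strand that overlaps it, AC092073.1, which was not analysed here, and fragments could be divided differently with another annotation.

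Fructose 6-phosphate is phosphorylated by phosphofructokinase, the main control point of glycolysis. PFKP, the platelet form, was its leading isoenzyme, with 51.5, 51.1 and 59.5 FPKM in control and 53.2, 54.2 and 54.0 FPKM in I13-treated cells. It took 57.1% to 59.8% of the phosphofructokinase FPKM, and PFKL, the liver form at 35.6 to 41.5 FPKM, took most of the rest. PFKM, the muscle form, made up no more than 0.228%. The 3 I13 values of PFKP lay within the range of control, with a log2 fold change of -0.0026 (SE 0.07) that was above 0, at 0.06, in the 4 libraries.

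The PFKFB enzymes make and break down fructose 2,6-bisphosphate, the strongest activator of phosphofructokinase. PFKFB3, whose kinase activity dominates, was the most abundant, with 11.6, 11.2 and 11.1 FPKM in control and 11.0, 9.94 and 10.4 FPKM in I13-treated cells. These groups did not overlap, by a small margin, and the unadjusted p of limma was 0.11 with a log2 fold change of -0.11 (SE 0.06). PFKFB4, a form induced by hypoxia, was at 2.54, 1.92 and 1.82 FPKM in control and at 1.66, 1.40 and 1.54 FPKM in I13-treated cells. Its groups did not overlap either, and control replicate 1 was the highest library. The log2 fold change of -0.41 (SE 0.16) had an unadjusted p of 0.0336 in limma, which was 0.112 without control replicate 1, 0.092 without I13 replicate 2 and 0.0663 without I13 replicate 3. It rested on 143 to 267 fragments. PFKFB4 lies on chromosome 3 from 48517684 to 48562015 on the minus strand, over UCN2 on the same strand. PFKFB2, the heart form, was at 0.342, 0.400 and 0.403 FPKM in control and 0.548, 0.376 and 0.456 FPKM in I13-treated cells, with an overlap and an unadjusted p of 0.42.

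Aldolase, which splits the six-carbon sugar, was almost wholly ALDOA, at no less than 99.4% of the aldolase FPKM in every library. ALDOA was at 111, 93.7 and 99.7 FPKM in control and at 87.4, 95.5 and 86.1 FPKM in I13-treated cells. I13 replicate 2 was above control replicate 2, so the groups overlapped. The log2 fold change of -0.17 (SE 0.07) had an unadjusted p of 0.0472 in limma, and that p was above 0.05 in 10 of 18 alternatives. Among them were the fits without control replicate 1 (where limma gave 0.153), control replicate 3 (0.0784), I13 replicate 1 (0.124) and I13 replicate 3 (0.136). The gene lies on chromosome 16 from 30064164 to 30070457 on the plus strand and is overlapped by a coding gene named AC093512.2. ALDOC, the brain form, was at 0.674, 0.577 and 0.454 FPKM in control and 0.408, 0.389 and 0.313 FPKM in I13-treated cells. Its groups did not overlap, and its log2 fold change of -0.50 (SE 0.25) was the lowest of the members, with an unadjusted p of 0.0799 on 14 to 34 fragments. AC005726.1 overlaps it on the same strand.

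The trunk that follows turns triose phosphate into pyruvate. TPI1, which interconverts the triose phosphates, was at 247, 237 and 249 FPKM in control and 220, 255 and 217 FPKM in I13-treated cells. GAPDH was at 954, 865 and 908 FPKM in control and 820, 888 and 797 FPKM in I13-treated cells. In both genes I13 replicates 1 and 3 were below every control library and I13 replicate 2 was not. GAPDH was also the reference gene for the PCR of the study, done on cells treated for longer than the 48 h of these libraries. Its log2 fold change was -0.12 (SE 0.06, 95% interval -0.27 to 0.03), with an unadjusted p of 0.0976 in limma and 0.0367 in voom. That of TPI1 was -0.09 (SE 0.07), with an unadjusted p of 0.26 in limma. When each library was left out in turn, the p of limma ran from 0.0352 to 0.275 for GAPDH and from 0.0127 to 0.587 for TPI1, and it was under 0.05 only without I13 replicate 2.

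PGK1, which forms the first ATP of the trunk, was at 139, 130 and 127 FPKM in control and 124, 132 and 121 FPKM in I13-treated cells. PGAM1, which moves the phosphate group on the three-carbon acid, was at 159, 150 and 161 FPKM in control and 145, 161 and 145 FPKM in I13-treated cells. ENO1, the enolase of most tissues, was at 614, 560 and 593 FPKM in control and 518, 594 and 528 FPKM in I13-treated cells. I13 replicates 1 and 3 were again the lowest libraries in all 3 genes. The log2 fold changes of PGK1, PGAM1 and ENO1 were -0.07, -0.06 and -0.11, and their unadjusted p in limma were 0.221, 0.309 and 0.159. On leaving out single libraries, that of ENO1 ran from 0.0255 to 0.401 and was under 0.05 only without I13 replicate 2. PKM, the pyruvate kinase of blood and tumor cells, was at 112, 95.5 and 112 FPKM in control and 96.6, 108 and 105 FPKM in I13-treated cells, with a log2 fold change of -0.04 that was above 0, at 0.0043, without I13 replicate 1.

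From ALDOA to PKM, 7 genes took 0.765% ± 0.0378 of the summed FPKM in control and 0.707% ± 0.0386 in I13-treated cells (SD, n = 3 each), with p = 0.2 in the exact permutation test. The percentages by library were 0.804, 0.728 and 0.765 in control and 0.687, 0.751 and 0.682 in I13-treated cells. I13 replicate 2 lay between the control libraries. The ratio of GAPDH to ENO1 stayed between 1.49 and 1.58 in all 6 libraries. GAPDH, TPI1, PGAM1, LDHA and PGK1 are among the members with pseudogene copies elsewhere in the genome. For every member, fragments listed on copies named after it amounted to at most 1.49% of those on gene and copies together. TPI1 reached that value.

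**Figure D3:**
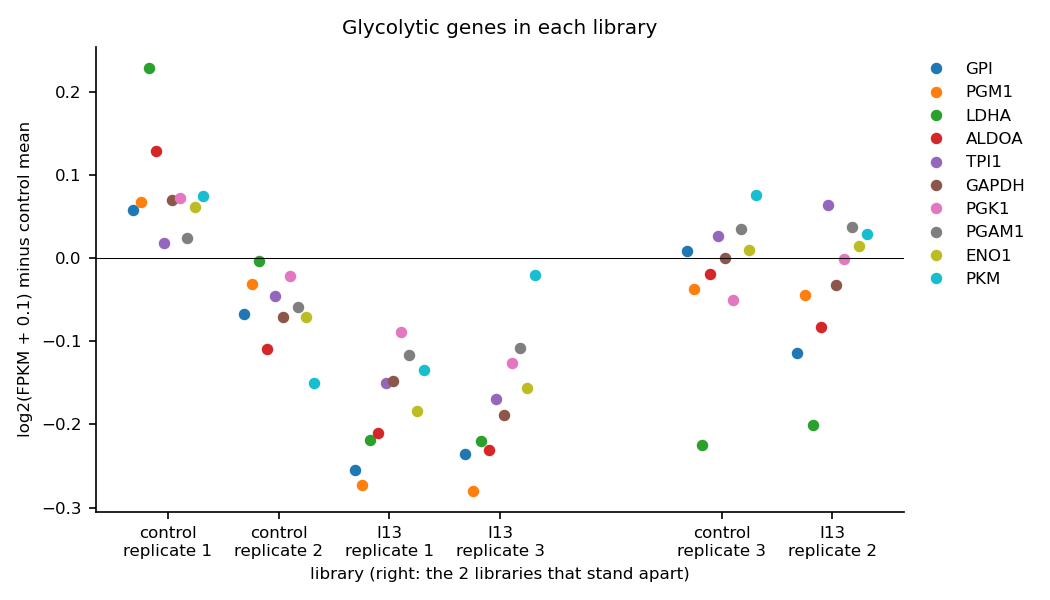
Log2(FPKM + 0.1) minus the mean of the 3 control libraries for 10 glycolytic genes, one color per gene, with control replicate 3 and I13 replicate 2 set to the right. In I13 replicates 1 and 3 all 10 genes lie below the control mean, whereas in I13 replicate 2 the genes lie on both sides of it, and LDHA in control replicate 3 is as low as in the I13 libraries.

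Other forms of these enzymes were scarce. ENO2, the neuronal enolase, was at 0.475, 0.313 and 0.479 FPKM in control and 0.778, 0.476 and 0.566 FPKM in I13-treated cells. Its log2 fold change of 0.43 (SE 0.27, 95% interval -0.21 to 1.07) was the highest of the members, with an overlap between the groups and an unadjusted p of 0.154 on 23 to 53 fragments. LRRC23 overlaps it on the same strand. ENO3, the muscle enolase, was between 0.838 and 1.59 FPKM. ENO1 held no less than 99.6% of the enolase FPKM. BPGM, which makes 2,3-bisphosphoglycerate, was at 3.09, 3.03 and 2.35 FPKM in control and 3.22, 3.33 and 2.89 FPKM in I13-treated cells. Its log2 fold change of 0.16 (SE 0.13) had an unadjusted p of 0.265 and was -0.0053 in the 4 libraries.

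Lactate dehydrogenase, the last step of glycolysis to lactate had a lower share of LDHA in each of the 3 I13 libraries, although neither gene passed the test in limma. LDHA, the subunit that favors the reduction of pyruvate to lactate, was at 122, 104 and 89.3 FPKM in control and at 89.7, 90.7 and 89.5 FPKM in I13-treated cells. The 3 I13 libraries were nearly equal, and control replicate 3 was at their level while control replicates 1 and 2 were above it. LDHB, which favors the reverse reaction, was at 409, 410 and 365 FPKM in control and 430, 382 and 399 FPKM in I13-treated cells. Control replicate 3 had the lowest LDHB as well. The log2 fold change of LDHA was -0.21 (SE 0.11, 95% interval -0.46 to 0.03), with an unadjusted p of 0.0815 in limma and 0.0111 in voom. It was -0.33 in the 4 libraries, with an unadjusted p of 0.0155 in limma, and 0.02 in the pair. The value rested on which control libraries were used. Without control replicate 1 it was -0.10 with a p of 0.233 in limma, and without control replicate 3 it was -0.33 with a p of 0.00484. When one of the remaining 4 libraries was left out, the p was between 0.136 and 0.152. That of LDHB was 0.03 (SE 0.07) with an unadjusted p of 0.659, and it was -0.04 with quantile normalization. LDHA lies on chromosome 11 from 18394388 to 18408425 on the plus strand, and LDHB on chromosome 12 from 21635342 to 21757857 on the minus strand, where AC010197.2 overlaps it.

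As a part of the lactate dehydrogenase FPKM, LDHA took 23.0%, 20.2% and 19.6% in the control libraries and 17.2%, 19.2% and 18.3% in the I13 libraries. Every I13 library was lower than every control library, although I13 replicate 2 and control replicate 3 were close. The means were 21.0% ± 1.80 in control and 18.3% ± 0.983 in I13-treated cells (SD, n = 3 each). The ratio of LDHB to LDHA was 3.35, 3.94 and 4.09 in control and 4.80, 4.21 and 4.45 in I13-treated cells. A share does not depend on the scaling between libraries, but its size depends on the exon lengths, 6210 bases for LDHA and 2983 for LDHB. In control replicate 1, LDHA had 13074 fragments and LDHB 21010. The order of the libraries in this ratio does not depend on the lengths.

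Such shares were compared at 8 steps with more than 1 isoenzyme, 22 shares in all. In 4 of them the groups did not overlap, which gives the smallest possible exact p of 0.1 in the permutation test, and the smallest adjusted p was 0.55. Beside LDHA and its mirror image LDHB they were PFKFB4, with 17.5%, 14.2% and 13.6% of the PFKFB sum in control and 12.5%, 12.0% and 12.4% in I13-treated cells, and PFKFB2, with 2.36%, 2.97% and 3.02% in control and 4.15%, 3.21% and 3.67% in I13-treated cells. The smallest margin for PFKFB2, 3.02% against 3.21%, rested on 68 of its fragments in control replicate 3 and 64 in I13 replicate 2. Its own level was lower in that I13 library than in that control library. Shares of 1 step sum to 100% and are not independent of each other. Among the 18726 genes tested, levels of the groups did not overlap in 9.52%, which is a rate for single genes and not for shares.

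**Figure D4:**
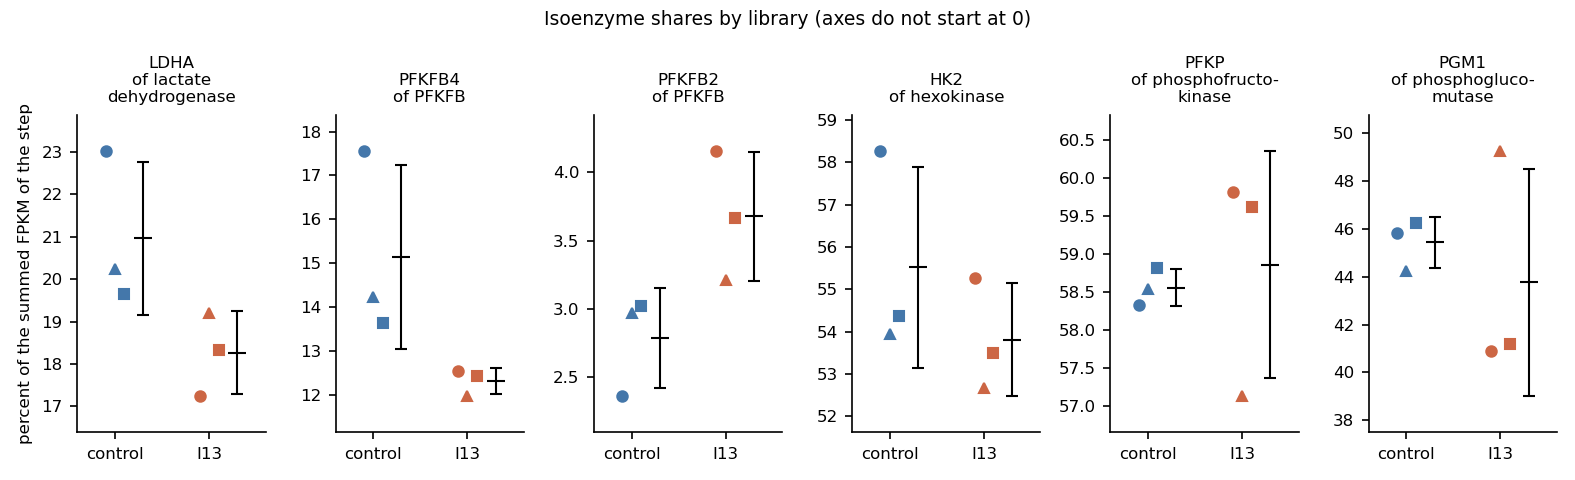
Share of an isoenzyme in the summed FPKM of its step, in percent, by library (circle, triangle and square are replicates 1, 2 and 3), with the mean and SD of each group in black. The axes do not start at 0. The I13 points of LDHA and PFKFB4 all lie below the control points and those of PFKFB2 all above, while HK2, PFKP and PGM1 overlap.

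Pyruvate dehydrogenase, which feeds pyruvate into the citric acid cycle had similar subunit levels in both groups. PDHA1, its catalytic subunit, was at 23.5, 24.1 and 22.9 FPKM in control and 23.7, 24.4 and 23.5 FPKM in I13-treated cells, a log2 fold change of 0.02 (SE 0.05, 95% interval -0.09 to 0.13) that was below 0, at -0.01, in the 4 libraries. PDHB, the partner subunit, ranged from 12.1 to 13.2 FPKM over all libraries. Of the inhibitory kinases, PDK2 was at 4.02, 3.93 and 4.33 FPKM in control and 4.38, 4.32 and 4.08 FPKM in I13-treated cells. PDK1, a form induced by hypoxia, ranged from 3.18 to 4.17 FPKM, and PDK3 from 1.30 to 2.19 FPKM with a log2 fold change of 0.18 (95% interval -0.29 to 0.65). Both groups overlapped for all 5 genes, and the smallest unadjusted p among them was 0.39, for PDK3.

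The phosphoglucomutases connect glucose 6-phosphate with glycogen and with sugar nucleotides. PGM1 was at 21.9, 20.4 and 20.4 FPKM in control and at 17.3, 20.2 and 17.2 FPKM in I13-treated cells. I13 replicates 1 and 3 were clearly lower than control, and I13 replicate 2 was only just so. The log2 fold change was -0.20 (SE 0.08, 95% interval -0.38 to -0.02) with an unadjusted p of 0.0353 and an adjusted p of 0.947 in limma. It was -0.29 in the 4 libraries and -0.0079 in the pair, and 8 of 18 alternatives put the p above 0.05. Without any 1 of the libraries except I13 replicate 2 the p of limma was between 0.0526 and 0.115. PGM1 lies on chromosome 1 from 63593276 to 63660245 on the plus strand. PGM2, which also acts on ribose phosphates, was at 25.9, 25.8 and 23.6 FPKM in control and 25.0, 20.9 and 24.6 FPKM in I13-treated cells, so here I13 replicate 2 was the lowest library.

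The groups did not overlap in 5 members, all lower in I13-treated cells (15.6%), namely GPI, PFKFB3, PFKFB4, ALDOC and PGM1. Among all genes tested 4.64% did not overlap and were lower, and 4.88% did not overlap and were higher. ALDOA, although past the unadjusted threshold, is not among the 5, and PFKFB3 and ALDOC, which are, did not pass it.

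The pentose phosphate enzymes were abundant and close to control. PGD, which makes NADPH in the oxidative branch, was at 200, 199 and 224 FPKM in control and 188, 205 and 205 FPKM in I13-treated cells. TKT, a transketolase of the non-oxidative branch, was at 74.4, 66.5 and 73.4 FPKM in control and 62.1, 68.6 and 62.7 FPKM in I13-treated cells, with a log2 fold change of -0.15 (SE 0.06) and an unadjusted p of 0.0535 in limma. That p was 0.0211 without control replicate 2 and 0.0205 without I13 replicate 2, and it was between 0.134 and 0.161 when one of the other 4 libraries was left out. TALDO1, the transaldolase of the same branch, was at 73.1, 74.7 and 83.6 FPKM in control and 78.4, 85.2 and 77.8 FPKM in I13-treated cells, a log2 fold change of 0.06 (SE 0.07). The groups overlapped in all 3 genes. Together they took 0.122% of the summed FPKM in control and 0.117% in I13-treated cells, with p = 0.5 in the exact permutation test.

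Genes around these pathways were counted in the same fit. Of 62 such genes the table held 60, of which 47 were tested. At the unadjusted threshold 2 were higher, 2 lower and 43 not past it, where 2.55% and 2.59% of all genes tested were higher and lower, and 0 were past the adjusted threshold in limma. MPC1, a subunit of the carrier that brings pyruvate into mitochondria, was at 23.0, 21.0 and 23.3 FPKM in control and 27.1, 25.0 and 26.7 FPKM in I13-treated cells. All I13 libraries were higher, and the log2 fold change of 0.23 (SE 0.06) had an unadjusted p of 0.007, which stayed under 0.05 in all 18 alternatives. Its partner MPC2 was at 6.23 ± 0.210 FPKM in control and 5.89 ± 0.171 FPKM in I13-treated cells (SD, n = 3 each), with an unadjusted p of 0.267.

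PRPS1, which makes phosphoribosyl pyrophosphate from the ribose phosphate of the pentose phosphate pathway, was at 35.7, 34.6 and 34.5 FPKM in control and 39.5, 37.5 and 38.2 FPKM in I13-treated cells, with a log2 fold change of 0.14 and an unadjusted p of 0.0173 in limma, which was 0.0621 without control replicate 2 and 0.0692 without I13 replicate 1. SLC16A3, a lactate exporter, was at 2.17, 1.54 and 1.58 FPKM in control and 1.24, 1.46 and 1.17 FPKM in I13-treated cells. Control replicate 1 stood above the rest, and the log2 fold change of -0.41 had an unadjusted p of 0.0492 that was above 0.05 in 13 of 18 alternatives and 0.167 without that library. PYGB, a glycogen phosphorylase, was at 50.1, 48.1 and 50.9 FPKM in control and 41.5, 47.0 and 44.5 FPKM in I13-treated cells, with a log2 fold change of -0.17 and an unadjusted p of 0.0225, which lay between 0.051 and 0.0796 when any library other than control replicate 2 or I13 replicate 2 was left out. By list, 1 of 11 further glycolytic and pentose phosphate enzymes and 1 of 9 genes of pyruvate entry were higher, 1 of 8 glucose and lactate transporters and 1 of 9 glycogen genes were lower, and 0 of 10 regulators were past the unadjusted threshold in limma. SLC2A1, a main glucose transporter, was at 17.0 ± 1.05 FPKM in control and 16.5 ± 0.836 FPKM in I13-treated cells (SD, n = 3 each).

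The pair of libraries that stood apart moved with many of these values. In the 4 other libraries the median log2 fold change of the members was -0.06, with 22 of 32 below 0, and in the pair it was -0.03 with 20 below 0. Over all genes tested the medians were 0.02 and -0.01. GPI, PFKFB4, PFKFB3, ALDOA, HK2 and TKT were below 0 in both comparisons, whereas TPI1, PGK1, PGAM1, ENO1 and LDHA were below 0 in the 4 libraries and above 0 in the pair. Whether what sets the pair apart has a part in these differences was not tested. In bulk samples less RNA per cell and fewer cells that express a gene cannot be told apart.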

How the data were processed

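Per the labels, 6 mRNA libraries of Kasumi-1 cells were made with a stranded Illumina kit. The authors deposited FPKM values per gene. The processing notes of the submitters name Trimmomatic, HISAT2, Cufflinks, HTSeq and hg38 with no version or role, and the annotation is not given in the sources used here. FPKM was used as deposited. With exon lengths of GENCODE release 29 (GRCh38), 25773 of 27002 genes above 0 (95.4%) gave whole fragments within a tolerance of 0.01, and 1322 more genes did with a length found by search (the shortest one, which cannot be told from its multiples), among them HK1, GPI, PFKM, ALDOA, PGK1, ENO1, PDK3 and PGM1. Fragments set the precision of low values. Coordinates are those of GENCODE.

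Groups were compared in R 4.3.3 with limma 3.58.1 (two-sided, with trend, no block) on log2(FPKM + 0.1) wherever the mean FPKM was 0.1 or more, with Benjamini-Hochberg adjustment. The levels of 0.05 and 0.58 (log2 fold change) come from the study, whose methods apply the first to corrected p. Counts at an unadjusted p are therefore on a looser threshold than the methods give. Fragments were tested with voom where their mean was 10 or more, and a voom fit with a term for the pair of libraries was added after the data were seen. Sums and shares were compared by exact permutation (scipy 1.17.1). On simulated data for this comparison limma called 172 of 200 genes changed by 2-fold and 24 unchanged ones among 18620 genes, and voom called 199 and 8 among 13832. The simulation gave every gene the same spread beyond counting, held no difference like that of the pair, and left genes of low count unchanged. It therefore does not show how smaller differences or members of low level fare. The alternatives were other pseudocounts, filters, scalings and variance models, a replicate block, the term for the pair, the other 4 libraries, and each library left out.

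Libraries of 1 group differed by more than counting noise, with a chi-square per gene of 3.07 to 8.26. Deviations of libraries with the same number correlated at 0.32, -0.38 and -0.30, and those of the pair that stood apart at 0.51. That pair shapes the other correlations, so they cannot show whether the numbers pair the libraries. The members and lists were chosen with earlier results of these data known. Values by library are given for the leading isoenzyme of each step, members with an unadjusted p under 0.05, the 5 with the largest absolute fold change and those whose share did not overlap, and for other pathway genes with an unadjusted p under 0.05. MPC2, SLC2A1 and the members given beyond this rule were chosen after their values were seen. MS4A1, HBB, PF4, DCN and KRT18 were not analysed here. Values of some single marker genes are not reported here.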

Additional observations from a re-analysis of the deposited data

How the results depend on the processing

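The number of members past the unadjusted p, 4 in the analysis as described, was 2 with median scaling, 7 with quantile normalization, 7 with voom and 10 with voom and a term for the library pair, and between 1 and 7 when each library was left out. The replicate block gave 2 members (GPI and PFKFB4). Whether the numbers pair the libraries is not known, and no member or gene passed the adjusted p in limma with the block. The number of members past the adjusted p, 0 otherwise, was 1 with voom and the term for the pair, which was picked from these same values. Among all genes, 963 passed the unadjusted p, against 582 with a minimum mean FPKM of 1 (fewer genes tested) and 1513 in the other 4 libraries. For the adjusted p the count of 0 became 9 without a trend, 5 with voom and 87 with voom and the pair term, and 0 to 2 when a library was left out. Shares without overlap, 4 of 22, were 14 in the other 4 libraries and between 4 and 10 when a library was left out, since fewer libraries overlap less often. The log2 fold change of PFKP became 0.063 in the 4 libraries and ran from -0.041 to 0.069 when a library was left out. That of LDHB became -0.038 with quantile normalization and ran from -0.024 to 0.071 when a library was left out, and that of PKM ran from -0.12 to 0.0043. It was -0.0053 for BPGM and -0.015 for PDHA1 in the 4 libraries. The cause of these changes was not tested except where stated. All other member differences given by library kept their sign in the alternatives run. The difference in the summed FPKM of the members was between -0.10 and -0.05 percentage points in all alternatives. At 3 libraries a group, low members such as ALDOC, ENO2 and PFKFB2, on under 100 fragments a library, are limited by counting, and differences under the intervals given cannot be seen.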
